A study of Mus musculus with 4 samples.

Results

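The 6 genes described here are Cd163, Mrc1, Lyve1, Folr2, Cbr2 and Msr1, chosen by name as scavenger receptors of interstitial macrophages, the macrophages that lie below the lining of a joint. All 6 were among the 11195 genes listed in all 4 libraries, and they were followed in barcodes that held 500 genes or more and had less than 10% of their UMIs from mitochondrial genes. The name covers the 6 only in part. Folr2 encodes a folate receptor and Cbr2 a carbonyl reductase, an enzyme, and at days 1, 2 and 5 Folr2 was about as high in barcodes with the lining gene Sparc as in those with the interstitial gene Cd209f, and Cbr2 as high or higher. Msr1 at day 5 was highest in barcodes of the monocyte gene Plac8.

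The cells came from hind paw synovium, the tissue around the joint, of Cx3cr1creER:tdTomato mice. In this strain tamoxifen, given here some weeks before the experiment, turns on tdTomato, a red fluorescent reporter, in cells with an active Cx3cr1 gene, and it stays on in their progeny. Every mouse carried these alleles and had been given tamoxifen. Cells were sorted as CD45+CD11b+Ly6G-, a gate for myeloid cells other than neutrophils, at steady state (day 0) and 1, 2 and 5 days after injection of arthritogenic K/BxN serum, which holds autoantibodies that inflame the joints. Each day has 1 library, the number of mice in it is not stated in the labels, and no age is given. No difference between days could therefore be tested, and what belongs to the day and what to its library cannot be told apart. Intervals in brackets are 95% intervals that cover counting error only.

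Tissue macrophages clear spent molecules through receptors that bind them and carry them inside. CD163 takes up haemoglobin bound to haptoglobin, the mannose receptor encoded by Mrc1 takes up glycoproteins and collagen fragments, and LYVE-1 binds hyaluronan, a main polymer of joint fluid and matrix. LYVE-1 also marks lymphatic vessels. Msr1 encodes the class A scavenger receptor, which binds modified lipoproteins and bacterial products and is also made by macrophages that derive from blood monocytes. In the joint, Sparc is known from macrophages of the lining sheet, Aqp1 and Cd209f from interstitial macrophages, H2-Aa from cells that present antigen, and Plac8 from monocytes that have recently arrived.

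Retained barcodes numbered 3715, 4642, 2722 and 3235 at days 0, 1, 2 and 5, with 4347517, 18373038, 12159063 and 14901661 UMIs (unique molecular identifiers, each standing for 1 captured RNA molecule). The day 0 library stood apart. Its retained barcodes had a median of 1057 UMIs, against 3607.5 to 4183.5 on the other days, and the gene minimum removed 3760 of its 7542 barcodes against 0 to 2 elsewhere. Libraries shared 10 to 22 retained barcode sequences in pairs, which were left in. Genes of other cell types differed in level. The 5 lymphatic endothelial markers gave 0, 0, 7 and 0 UMIs at days 0, 1, 2 and 5, and 6 endothelial markers summed to 6.21 to 9.19 CPM (counts per 1e6 UMIs of the library or class). Haemoglobin genes were unlisted at day 0, and erythroid markers, which are haemoglobin genes and Alas2, summed to 161 CPM at day 5. Summed levels were 954, 239, 317 and 1185 CPM for 5 osteoclast markers, and 7.57 to 36.6 CPM for 7 neutrophil markers. The 6 fibroblast markers summed to 43.2, 120, 88.7 and 95.1 CPM, and within Sparc-positive barcodes to 236, 136 and 265 CPM at days 1, 2 and 5. Only 1 to 6 barcodes per library held at least 2 UMIs of 10 lymphoid markers, too few to measure how much free RNA reaches barcodes of a type that lacks these genes.

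The members lie on 5 chromosomes in mm10, in the GENCODE M21 annotation, and all are protein-coding. Cd163 is at chr6:124304656-124330527 and Mrc1 at chr2:14229392-14332057, both on the plus strand. Lyve1 is at chr7:110850607-110863239, Folr2 at chr7:101839988-101857194, Cbr2 at chr11:120729489-120732114 and Msr1 at chr8:39581685-39642673, all on the minus strand. None shares its span with another gene that the count files list. The 250 bases before the start are shown for the 4 members found in the promoter table used, to set beside their levels. They come from RefSeq (GRCm38.p6, the build of mm10), read 5′ to 3′ on the gene's strand. Capitals mark GGAAGT, a core bound by PU.1 and other ETS factors, and TGCTGA, a half-site of Maf factors, each searched on both strands (a match on the opposite strand reads ACTTCC or TCAGCA). The 2 motifs do not overlap in these windows.
Cd163, chr6:124304401-124304650: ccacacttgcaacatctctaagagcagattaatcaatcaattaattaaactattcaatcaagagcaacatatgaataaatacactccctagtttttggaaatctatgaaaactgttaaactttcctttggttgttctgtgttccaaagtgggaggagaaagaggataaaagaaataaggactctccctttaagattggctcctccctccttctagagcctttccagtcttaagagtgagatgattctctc
Mrc1, chr2:14229164-14229413: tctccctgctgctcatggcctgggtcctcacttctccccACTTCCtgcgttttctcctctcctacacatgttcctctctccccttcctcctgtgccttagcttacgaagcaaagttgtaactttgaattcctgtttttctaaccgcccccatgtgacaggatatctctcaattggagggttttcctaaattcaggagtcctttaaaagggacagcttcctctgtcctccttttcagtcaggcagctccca
Folr2, chr7:101857191-101857440: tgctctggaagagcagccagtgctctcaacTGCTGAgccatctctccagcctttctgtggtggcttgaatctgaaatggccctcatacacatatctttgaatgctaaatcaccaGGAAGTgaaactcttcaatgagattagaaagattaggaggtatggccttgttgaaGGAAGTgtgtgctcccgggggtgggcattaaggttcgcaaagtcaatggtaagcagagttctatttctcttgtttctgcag
Cbr2, chr11:120732022-120732271: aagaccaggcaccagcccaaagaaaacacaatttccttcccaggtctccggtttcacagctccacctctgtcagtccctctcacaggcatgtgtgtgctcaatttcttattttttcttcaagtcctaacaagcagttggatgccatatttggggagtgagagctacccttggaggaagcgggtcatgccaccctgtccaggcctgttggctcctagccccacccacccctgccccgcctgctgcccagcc
Mrc1 had 1 GGAAGT match, on the opposite strand. Folr2 had 2 GGAAGT matches and 1 TGCTGA match, and Cd163 and Cbr2 had neither motif in these letters. Over all 32851 promoters of the same length, 19.7% held GGAAGT and 16.1% held TGCTGA. A match is a string of letters and not a measured binding site. The table gives a further start for Folr2, not shown, and Lyve1 and Msr1 were not matched.

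All members but Msr1 were highest at day 1 or day 2 and lower at day 5, while Msr1 was highest at day 5. Lyve1 measured 1199 CPM [1166, 1232], 1471 [1453, 1489], 1305 [1285, 1325] and 542 [531, 554] at days 0, 1, 2 and 5. The day 5 level lay far below the other 3, and no intervals of Lyve1 overlapped.

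Cd163 stood at 239 CPM [225, 254], 317 [309, 325], 243 [234, 251] and 128 [122, 134] at days 0, 1, 2 and 5. Its day 0 and day 2 intervals overlapped and its day 5 level was the lowest. Mrc1 was at 329 CPM [312, 346] at day 0 and 332 [322, 341] at day 5, which overlapped, with higher levels of 653 [641, 665] at day 1 and 565 [552, 579] at day 2 between them. Folr2 ran from 818 CPM [791, 845] at day 0 to 1299 [1283, 1316] at day 1 and 1325 [1305, 1346] at day 2, and back to 755 [741, 769] at day 5. The day 1 and day 2 levels of Folr2 were close, with intervals that overlapped.

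Cbr2 took a like course, with 465 CPM [445, 486], 635 [624, 647], 629 [615, 643] and 351 [341, 360] at days 0, 1, 2 and 5. Here too the day 1 and day 2 intervals overlapped. Msr1 went the other way: 84.2 CPM [75.8, 93.3], 123 [118, 129], 126 [120, 132] and 179 [172, 185]. The day 1 and day 2 levels of Msr1 could not be told apart within counting error. The plot of levels by day shows these values beside those without Plac8-positive barcodes.

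**Figure D1:**
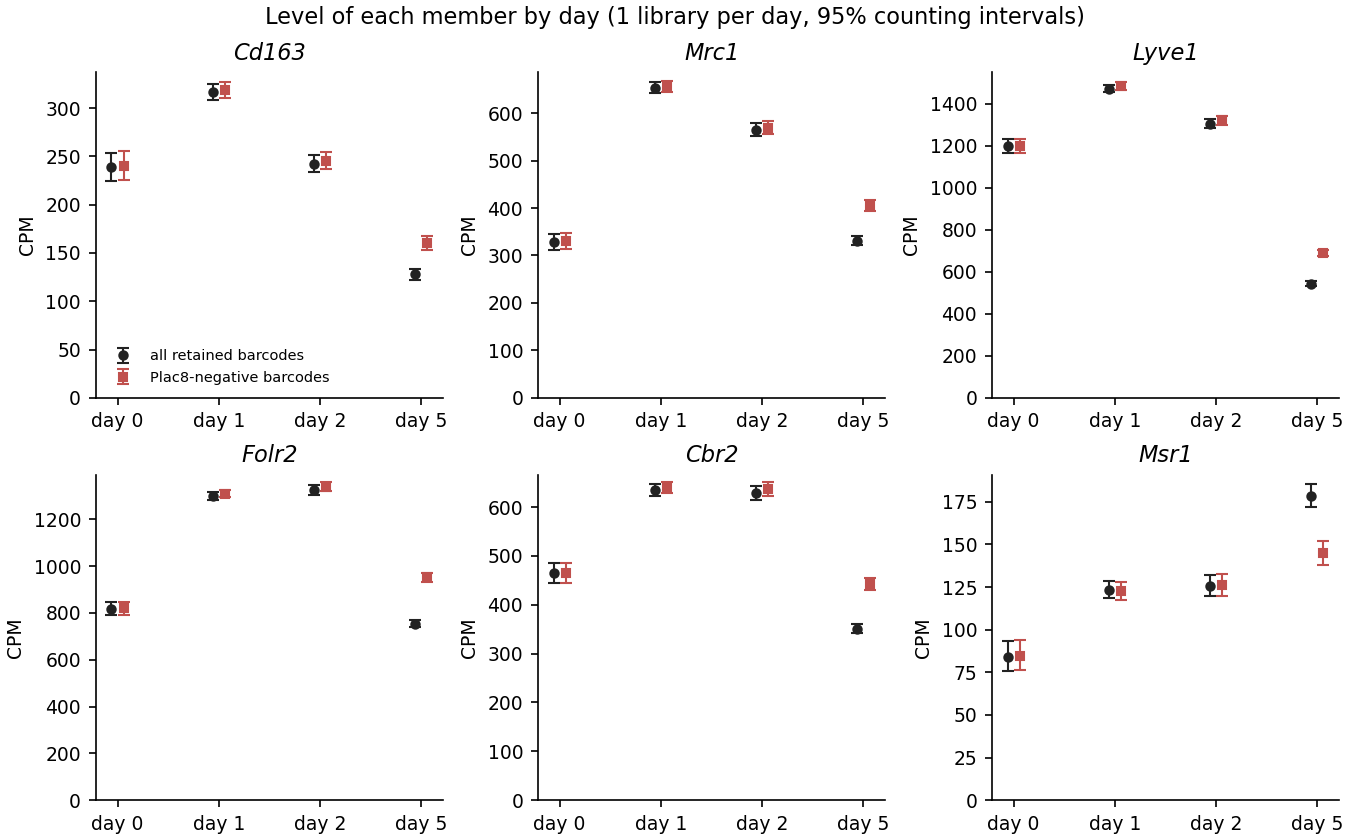
Level of each member in CPM (y axis, from 0) at days 0, 1, 2 and 5 (x axis, not to scale), over all retained barcodes (black circles) and over barcodes with no Plac8 UMI (red squares), with 95% counting intervals and 1 library per day. The 2 sets nearly coincide at days 0 to 2 and part at day 5, where red lies above black for every member but Msr1 (Lyve1 689 against 542 CPM, Msr1 145 against 179 CPM).

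A member was counted as changed where its level differed at least 2-fold between libraries, and each count is given beside the share of all genes with at least 10 CPM in 1 of the 2 libraries that passed the same fold. Against day 0, no member passed 2-fold in either direction at day 1 (2.41% of 7354 genes lower, 2.57% higher) or at day 2 (2.98% of 7320 genes lower, 2.77% higher). Mrc1 at day 1 came closest, at 1.99-fold higher. At day 5, 1 of 6 was lower, Lyve1 by 2.21-fold [2.13, 2.29], where 3.34% of 7419 genes were lower. Msr1 alone was higher, by 2.12-fold [1.90, 2.37], where 6.43% of genes were higher. The median log2 ratio of the 6 was -0.26 against 0.11 over all genes tested, and scaling to that median put Msr1 at 1.96-fold and Cd163 at 0.496 of its day 0 level.

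From day 1 to day 5 the members differed more. Lyve1 was lower by 2.71-fold [2.65, 2.78] and Cd163 by 2.47-fold [2.35, 2.61], so that 2 of 6 passed 2-fold where 1.25% of 7515 genes did. Mrc1 came just short, at 1.97-fold lower [1.91, 2.04]. Cbr2 was at 1.81-fold and Folr2 at 1.72-fold lower. No member was 2-fold higher, where 3.71% of genes were, and Msr1 stood 1.45-fold higher [1.37, 1.53]. The median log2 ratio of the 6 was -0.92, against -0.05 over all genes tested.

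From day 2 to day 5, 1 of 6 passed, Lyve1 at 2.41-fold lower [2.34, 2.47], where 1.07% of 7469 genes were lower. The other 4 that were lower lay close to each other, Cd163 at 1.89-fold, Cbr2 at 1.79-fold, Folr2 at 1.76-fold and Mrc1 at 1.70-fold. None was 2-fold higher, where 4.11% of genes were, and Msr1 was 1.42-fold higher [1.33, 1.51]. The median log2 ratio was -0.83 for the 6 and -0.04 over all genes tested. Day 1 and day 2 are separate libraries that share the day 5 library in these comparisons, so the 2 sets of ratios are not independent.

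The class genes differed between the days too. Plac8, a gene of recently arrived monocytes, was at 8.74, 29.4 [27.0, 32.0], 42.3 [38.7, 46.1] and 421 CPM [411, 432] at days 0, 1, 2 and 5. Aqp1, a water channel, was near level at 800, 815 and 800 CPM and then at 289 [280, 298] at day 5. Cd209f, a lectin, was at 97.3, 102, 56.9 and 16.5 CPM. Sparc was at 887, 824, 1001 and 545 CPM, and H2-Aa, an MHC class II chain, at 1992, 2309, 1742 and 2766 CPM. In libraries of sorted cells, fewer cells of a type and less RNA per cell cannot be told apart from such sums. The members were next followed inside classes of barcodes called by these genes. A barcode that lost its class gene together with a member leaves the class, so levels within classes cannot show such a shared loss.

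A barcode was called positive for a class gene at 1 UMI, and classes overlap. At day 1, 52.2% of Sparc-positive barcodes were also Aqp1-positive, while 3.91% were Cd209f-positive. The members parted by class at days 1, 2 and 5. Folr2 was high in Sparc-positive and Cd209f-positive barcodes, Cbr2 in Sparc-positive ones, Cd163 and Mrc1 in Cd209f-positive ones and Lyve1 in Aqp1-positive ones. Msr1 was high in Plac8-positive barcodes at day 5. The plot of levels by class gives each value.

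**Figure D2:**
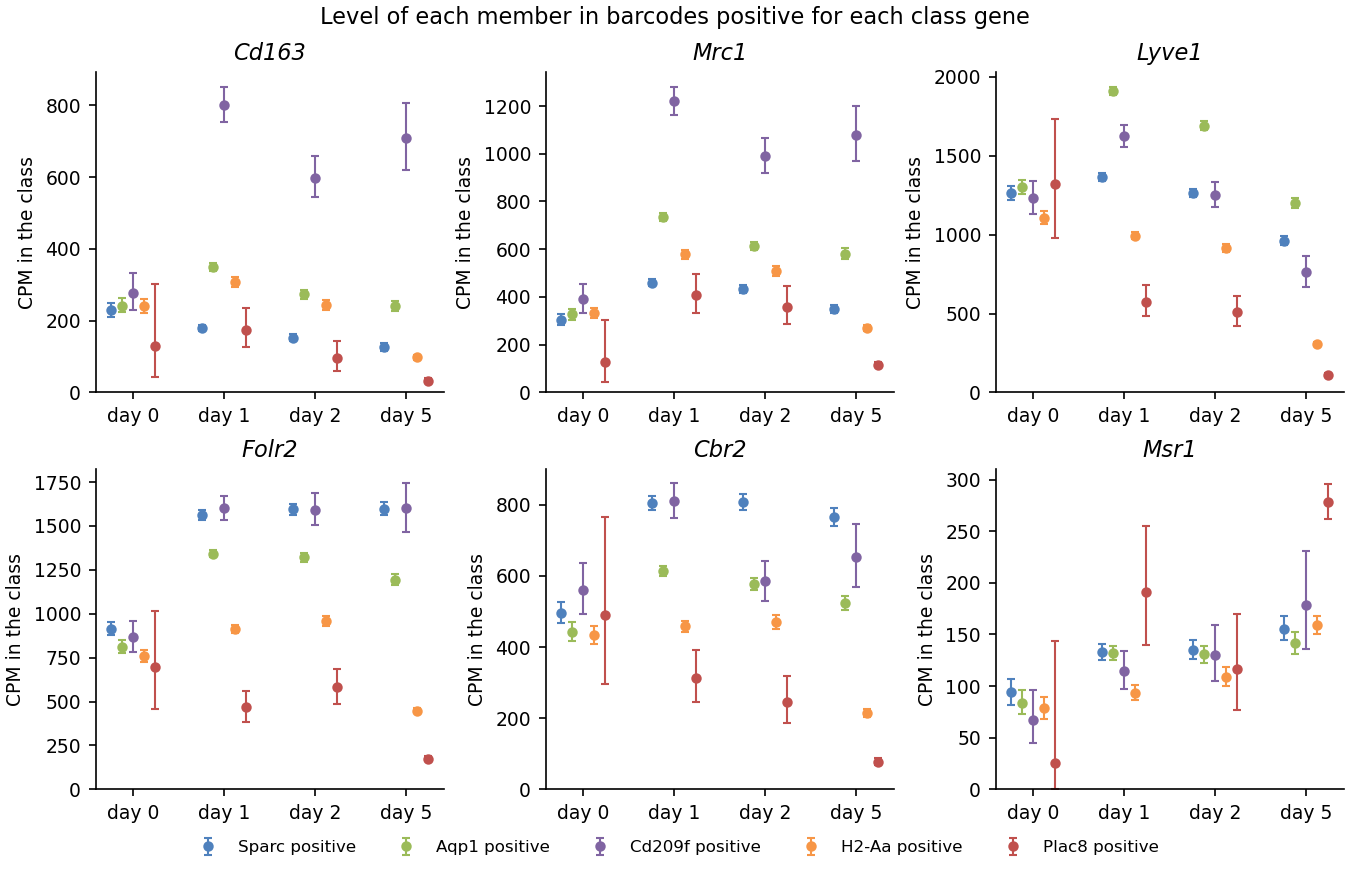
Level of each member in CPM (y axis, from 0) within barcodes positive for Sparc, Aqp1, Cd209f, H2-Aa or Plac8 (colours) at days 0, 1, 2 and 5 (x axis, not to scale), with 95% counting intervals. The classes lie close together at day 0 and spread from day 1, and at day 5 Lyve1 is lower than at day 2 in all 5 classes while Folr2 in Sparc-positive barcodes is at 1595 and 1599 CPM.

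Since a deep barcode is more often positive for everything, the contrast inside a day was also read with the class called on 500 drawn UMIs and the level taken from the UMIs left over. Read so, Cd163 at day 1 was 3.25 times as high in Cd209f-positive as in negative barcodes [2.95, 3.57] and Mrc1 2.25 times as high [2.08, 2.42]. In Sparc-positive barcodes the same 2 genes were lower than in negative ones, at ratios of 0.397 [0.363, 0.434] and 0.522 [0.493, 0.551]. Folr2 and Cbr2 were higher there, at 1.49 [1.45, 1.53] and 1.65 [1.58, 1.72]. Lyve1 showed its highest ratio with Aqp1, 1.89 [1.84, 1.94]. Day 2 gave the same order, with 3.60 and 2.21 for Cd163 and Mrc1 by Cd209f and 1.74 for Cbr2 by Sparc. At day 5 the Sparc ratios of Cd163 and Mrc1 were 1.04 [0.908, 1.18] and 1.01 [0.930, 1.09], while that of Cbr2 was 3.66. The negative barcodes differed in makeup: 32.5% of Sparc-negative barcodes had a Plac8 UMI at day 5, against 1.64% at day 1. With Plac8-positive barcodes set aside, Sparc-positive ones at day 5 held Cd163 at 132 and Mrc1 at 358 CPM. Those with Aqp1 or Cd209f but no Sparc held 337 and 751 CPM. At day 1 these levels were 179 and 459 against 470 and 899 CPM. Set against these barcodes, Cd163 and Mrc1 were lower with Sparc on both days.

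H2-Aa-positive barcodes held less of most members. At day 1, ratios to negative barcodes were 0.331 for Lyve1 [0.316, 0.346], 0.348 for Folr2 [0.332, 0.365] and 0.380 for Cbr2 [0.356, 0.406]. Msr1 was at 0.434 and Mrc1 at 0.708, and Cd163 was nearly even at 0.915 [0.853, 0.980]. At day 5 the gap for Lyve1 was wider, at 0.174 [0.158, 0.192].

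The day 0 library showed smaller contrasts, with ratios between 0.802 and 1.30 by Sparc, Aqp1, Cd209f and H2-Aa. There the ratio for Cd163 by Cd209f was 1.03 [0.697, 1.47] and by Sparc 0.849 [0.706, 1.02]. Lyve1 by H2-Aa was at 0.802 [0.745, 0.864] and Folr2 by Sparc at 1.29 [1.18, 1.41]. Sparc and H2-Aa were also widely spread: 51.5% of day 0 barcodes had a Sparc UMI and 60.7% an H2-Aa UMI, against 28.3% to 46.5% and 36.4% to 48.1% at the other days, at greater depth. Levels within classes were therefore compared from day 1 and day 2 to day 5 and not from day 0. The 3827 barcodes left out at day 0 held the members at like levels, such as Lyve1 at 1199 CPM in both sets. It is therefore not known how far the day 0 levels, class ratios and co-detection are those of single cells, and the part of free RNA and of the lower depth was not tested.

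Plac8-positive barcodes were 32, 59 and 52 at days 0, 1 and 2 and 826 at day 5. They held 0.890%, 1.31%, 1.90% and 25.3% of the UMIs, and at day 5 were 25.5% of barcodes. Inside them at day 5 the members were low, save Msr1. Lyve1 was at 110 CPM [99.6, 121] against 689 in Plac8-negative barcodes of the same day, Folr2 at 175 against 952, and Cd163 at 32.8 against 160. Mrc1 was at 116 against 405 and Cbr2 at 78.1 against 443. Msr1 was at 278 CPM [262, 295] against 145, which is 1.92 times as high. Median depth was alike, at 3893.5 and 3897 UMIs per barcode.

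The library ratio from an early day to day 5 can be written as the ratio among Plac8-negative barcodes times a remaining factor, which is what adding the Plac8-positive barcodes does to the level. For the 5 members that were lower, the remaining factor from day 2 to day 5 was 0.796 to 0.825, much the same for each. The part among Plac8-negative barcodes differed. Lyve1 there was 1.92-fold lower [1.86, 1.97], from 1320 to 689 CPM. Cd163 was 1.53-fold lower [1.44, 1.62], Cbr2 1.44-fold [1.38, 1.49], Folr2 1.41-fold [1.37, 1.44] and Mrc1 1.41-fold [1.35, 1.46]. On the log2 scale the Plac8-negative barcodes thus carried 74.1% of the Lyve1 difference and 60.8% to 66.6% of the others. Msr1 was 1.15-fold higher [1.07, 1.23] there, with a remaining factor of 1.23. Plac8-negative barcodes also differed in makeup between these days. Monocyte markers in them summed to 112 CPM at day 2 and 293 CPM at day 5, and osteoclast markers to 323 and 1179 CPM. The part of either RNA in these differences was not tested.

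Past 2-fold among Plac8-negative barcodes was 1 of 6 from day 1 to day 5, Lyve1 at 2.15-fold lower, where 0.387% of 7495 genes were lower. Cd163 was just short at 1.99-fold. Leaving out the deepest 5% of barcodes, or averaging the CPM of each barcode, gave 0 of 6. From day 2 to day 5 it was 0 of 6, where 0.148% of 7456 genes were lower, and from day 0 to day 5 also 0 of 6, where 2.59% were. No test was possible for any of these counts.

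A wider rule took barcodes with any UMI of Plac8, Ly6c2, Chil3, Hp, F10, Thbs1 or Arg1, genes of monocytes and of activated macrophages. Such barcodes held 45.3% of UMIs at day 5 against 5.00% at day 2. Setting them aside left ratios from day 2 to day 5 nearer to 1. Lyve1 was 1.61-fold lower [1.57, 1.66], Cd163 1.30-fold, Mrc1 1.25-fold, Cbr2 1.21-fold and Folr2 1.17-fold. Msr1 was level at 0.991 [0.914, 1.08]. The remaining factor was then 0.668 to 0.732 for the 5 and 1.43 for Msr1. How much of the day 5 difference falls to either part thus depends on how widely the added barcodes are drawn, and Lyve1 had the largest part inside the rest under both rules.

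**Figure D3:**
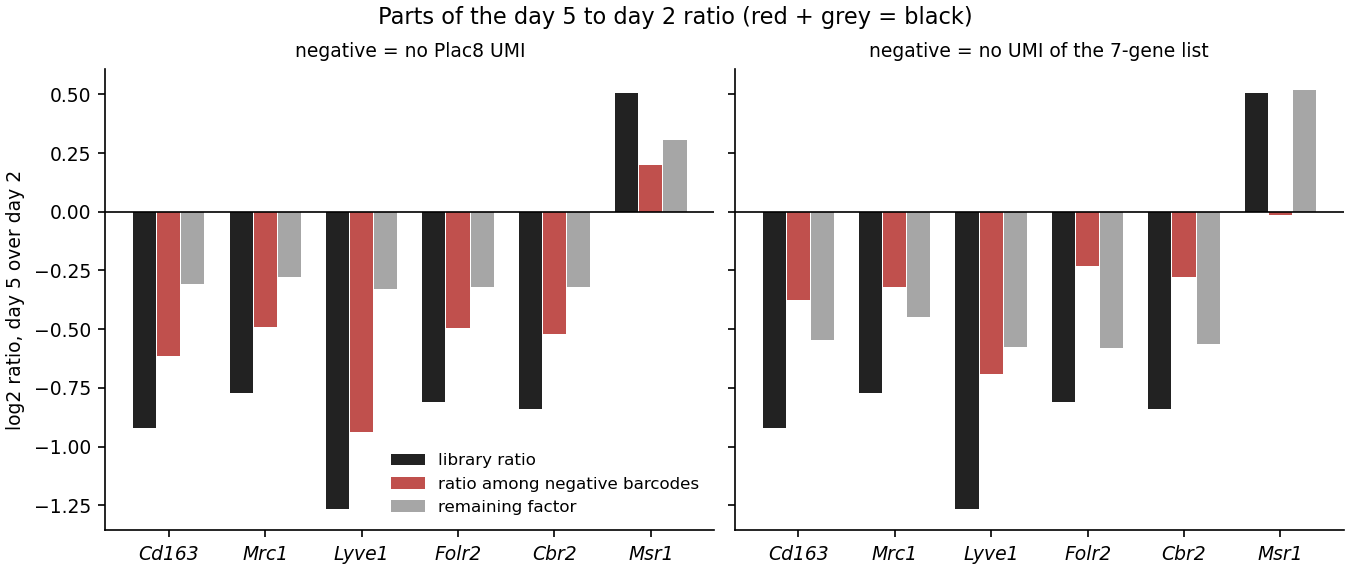
log2 ratio of day 5 over day 2 for each member (x axis), with the library ratio (black), the ratio among negative barcodes (red) and the remaining factor (grey), which sum to the black bar. Negative means no Plac8 UMI on the left and no UMI of the 7-gene list on the right. The red bar of Lyve1 is the longest on both sides (-0.94 and -0.69), and that of Msr1 is 0.20 on the left and -0.01 on the right.

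Within the Sparc-, Aqp1- and Cd209f-positive classes the members separated further. In Sparc-positive barcodes (1715, 1267 and 915 at days 1, 2 and 5) Folr2 was at 1563, 1595 and 1599 CPM, a day 5 to day 2 ratio of 1.00 [0.972, 1.03]. Cbr2 was at 805, 807 and 766 CPM, a ratio of 0.948 [0.908, 0.990]. Lyve1 was at 1367, 1263 and 961 CPM, and its day 5 interval lay below the others. The ratio of Lyve1 was 0.761 [0.733, 0.790]. Mrc1 and Cd163 had ratios of 0.806 [0.757, 0.858] and 0.827 [0.744, 0.918], and Msr1 was at 1.15 [1.04, 1.27].

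Aqp1-positive barcodes (2825, 1602 and 1039) gave Lyve1 at 1912, 1691 and 1200 CPM, 1.41-fold lower from day 2 to day 5 [1.37, 1.45]. The other 4 moved less, with ratios of 0.879 for Cd163, 0.949 for Mrc1, 0.903 for Folr2 and 0.906 for Cbr2. Msr1 was at 132, 131 and 142 CPM, with a ratio of 1.08 whose interval spans 1.

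Cd209f-positive barcodes were few (397, 184 and 83), and they held the most Cd163 and Mrc1. Cd163 was at 802, 599 and 708 CPM and Mrc1 at 1219, 992 and 1080. From day 2 to day 5 neither was lower, with ratios of 1.18 [1.00, 1.39] and 1.09 [0.956, 1.24]. Folr2 was at 1603, 1593 and 1601 CPM. Lyve1 was at 1623, 1253 and 763 CPM, 1.64-fold lower [1.42, 1.90], and at day 5 its level in this class was below that in Sparc-positive barcodes, an order opposite to day 1. That order rests on 83 barcodes, and leaving out barcodes of the wider list brought both levels close together, as given below.

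Stricter positivity, chosen after the data were seen, left Lyve1 lower at day 5 in all 3 classes. The day 5 to day 2 ratio of Lyve1 was 0.841 [0.808, 0.876] with at least 3 Sparc UMIs, 0.814 [0.783, 0.846] with at least 3 Aqp1 UMIs and 0.530 [0.440, 0.636] with at least 2 Cd209f UMIs. Folr2 was then at 1.06, 1.01 and 0.943, and Mrc1 at 0.851, 1.02 and 1.00. Monocyte RNA was also higher inside these classes at day 5: 7 monocyte markers summed to 68.3 CPM at day 2 and 297 at day 5 in Sparc-positive barcodes, 103 and 335 in Aqp1-positive ones, and 162 and 690 in Cd209f-positive ones. Osteoclast markers in the same classes went from 96.4 to 520, from 214 to 702 and from 63.0 to 92.4 CPM. The part of either RNA in these differences was not tested. Leaving out barcodes with the wider list gave Lyve1 at 1034 CPM at day 5 against 1291 at day 2 with Sparc, 1352 against 1714 with Aqp1, and 1003 against 1296 with Cd209f.

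H2-Aa-positive barcodes (1690, 1021 and 1557) showed all 5 lower at day 5. Lyve1 was at 994, 916 and 307 CPM, 2.98-fold lower from day 2 [2.84, 3.14]. Cd163 was 2.48-fold, Cbr2 2.20-fold, Folr2 2.15-fold and Mrc1 1.88-fold lower, and Msr1 1.46-fold higher [1.32, 1.62]. The makeup of this class differed between the days: at day 5, 28.5% of it was Plac8-positive, against 1.86% at day 2, and osteoclast markers in it summed to 1697 CPM against 372. Barcodes positive for none of the 5 class genes (307, 150 and 295) gave a similar picture, with Lyve1 at 888, 685 and 158 CPM and Mrc1 at 945, 937 and 255 CPM. The monocyte markers in them summed to 68.5 CPM at day 2 and 531 at day 5, and erythroid markers to 11.1 and 1930 CPM. The part of these RNAs in the differences was not tested.

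A further split, chosen after the data were seen, sorted every barcode into 1 of 4 exclusive classes and parted the day 5 minus day 2 difference into shares of UMIs and levels within classes. The classes were Plac8-positive, then Sparc-positive, then Aqp1- or Cd209f-positive, then negative for all 4. The last class held 11.6% of UMIs at day 2 and 28.6% at day 5, and Lyve1 in it went from 374 to 90.6 CPM. Changed shares took 74.4% of the Folr2 difference (-571 CPM in all) and 70.9% of the Cbr2 difference (-278 CPM). They took 51.6% for Lyve1 (-763 CPM), 42.8% for Cd163 (-114 CPM) and 37.6% for Mrc1 (-234 CPM). Levels of Mrc1 at days 2 and 5 were 620 and 220 CPM in the class negative for all 4, and 360 and 116 CPM in the Plac8-positive class. With Sparc they were 432 and 358 CPM, and with Aqp1 or Cd209f 762 and 751 CPM. Those of Cd163 were 247 and 71.0, 95.3 and 32.8, 152 and 132, and 387 and 337 CPM in the same order of classes. For Msr1, 19.1% of a difference of 52.7 CPM came from shares. Its level from day 2 to day 5 differed most in the Plac8-positive class, at 117 CPM (27 UMIs) and 278 CPM. In the class negative for all 4 it was at 86.0 and 145 CPM. With Sparc it was at 135 and 149 CPM, and with Aqp1 or Cd209f at 126 and 138 CPM. From day 1 to day 5 the shares took 44.9% for Lyve1, 57.5% for Cbr2, 32.0% for Cd163, 71.4% for Folr2, 39.4% for Mrc1 and 36.2% for Msr1, so that for Lyve1 the larger part lay in levels. In the class negative for all 4, 6 antigen presentation markers summed to 47377 and 32642 CPM at days 2 and 5, and 5 osteoclast markers to 1411 and 2198 CPM.

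Levels also differed by barcode depth. The deepest 5% of barcodes held 12.1%, 11.9% and 15.7% of UMIs at days 1, 2 and 5. In them Lyve1 was at 953, 803 and 162 CPM, against 1542, 1373 and 613 CPM in the other barcodes. Osteoclast markers summed to 896, 1055 and 6590 CPM in the deepest barcodes and to 148, 218 and 180 CPM in the others. Without the deepest 5%, Lyve1 was at 0.511 of its day 0 level at day 5, and so did not pass 2-fold.

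Co-detection was read in barcodes thinned to 500 UMIs, which left out none of the retained barcodes. At day 0, 38.1% of barcodes [36.5, 39.7] held 2 or more of the 6 members. The shares of days 1, 2 and 5 were 49.8% [48.4, 51.3], 47.1% [45.2, 49.0] and 26.6% [25.1, 28.2]. Day 5 was the lowest, and the intervals of days 1 and 2 overlapped. Unthinned, the shares were 73.0%, 90.0%, 90.9% and 63.3%. Barcodes with none of the 6 were 24.1%, 21.9%, 21.4% and 47.3%.

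**Figure D4:**
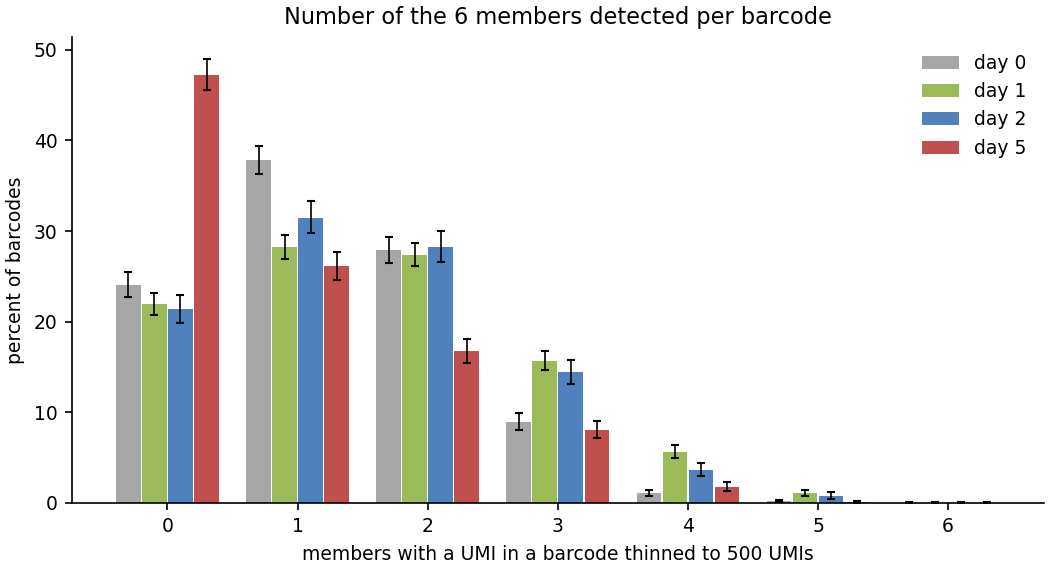
Percent of barcodes (y axis, from 0) by the number of the 6 members with a UMI (x axis) at each day (colours), after thinning to 500 UMIs, with 95% binomial intervals. At day 5 the bar at 0 members is at 47.3%, against 21.4% to 24.1% on the other days.

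The share with no member differed by class. Of the 5 members apart from Msr1, 87.2% of Plac8-positive barcodes at day 5 held none after thinning, and 4.12% held 2 or more [2.87, 5.70]. In H2-Aa-positive barcodes the share with 2 or more was 36.1%, 35.5% and 15.6% at days 1, 2 and 5. It was 48.2%, 47.8% and 43.4% in Sparc-positive barcodes, 54.4%, 48.4% and 45.0% in Aqp1-positive ones and 64.0%, 65.8% and 62.7% in Cd209f-positive ones. Median depths of these classes at day 5 were 3478 to 4437 UMIs before thinning. The Cd209f-positive shares lay within each other's intervals.

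Pairs of members were then set against the number of shared barcodes that independence would give. Over the 10 pairs without Msr1 the median ratio of observed to expected was 1.04, 1.21, 1.15 and 1.79 at days 0, 1, 2 and 5. The largest value such a ratio can take rises as a gene is found in fewer barcodes. After thinning, Lyve1 was in 39.9% of barcodes at day 2 and 18.6% at day 5, so ratios of different days are not on 1 scale. All 10 pairs were above 1 at days 1, 2 and 5. Folr2 and Cbr2 shared 275 barcodes at day 5 where 129 were expected, a ratio of 2.13, against 1.25 at day 2. Lyve1 and Folr2 shared 326 where 161 were expected. The 5 pairs with Msr1 had medians of 1.00, 1.11, 1.13 and 0.610, and all 5 were below 1 at day 5. Msr1 and Cd163 were found together in 8 barcodes where 17.1 were expected, and Msr1 was in 3.98% of Cd163-positive and 8.83% of Cd163-negative barcodes.

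**Figure D5:**
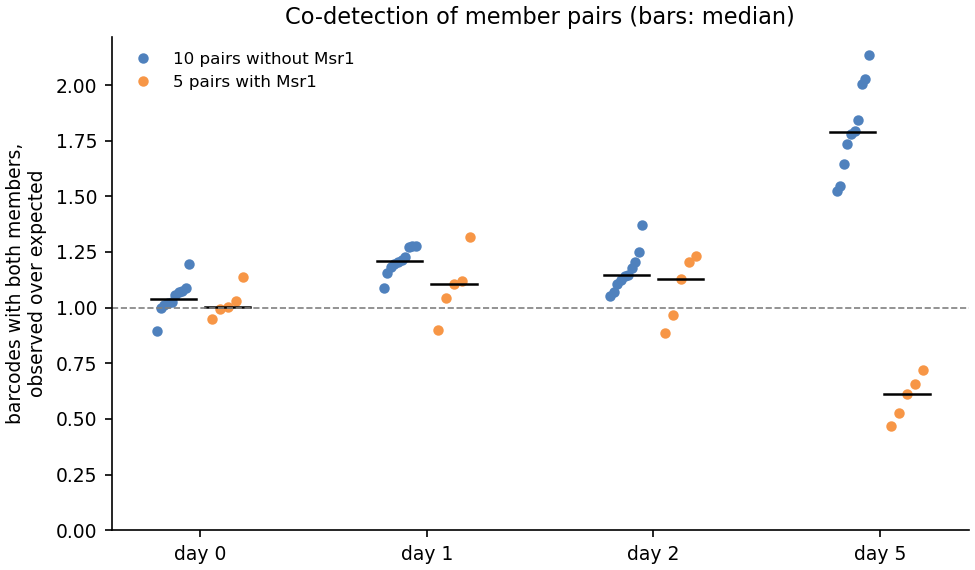
Barcodes that hold both members of a pair over the number expected if the 2 were independent (y axis, from 0), at days 0, 1, 2 and 5, after thinning to 500 UMIs. Each point is 1 pair, and black bars are medians. The 10 pairs without Msr1 (blue) lie between 1.53 and 2.13 at day 5, and the 5 with Msr1 (orange) between 0.467 and 0.719.

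Inside Plac8-negative barcodes the day 5 medians were 1.45 without and 0.677 with Msr1, and without any barcode of the wider list they were 1.29 and 0.911. Inside Sparc-positive barcodes the pairs without Msr1 stood at 1.11, 1.07 and 1.12 on days 1, 2 and 5. In H2-Aa-positive barcodes they stood at 1.45, 1.19 and 1.88. These ratios are descriptions of pooled barcodes and carry no test.

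Each member was last read in barcodes marked by the others, a choice made after the data were seen that uses none of its own UMIs. A barcode that lost several members together drops out of such a class, so these ratios cannot show a shared loss. The others were called on all UMIs, so the class also depends on depth. Barcodes with at least 2 of the other members, Msr1 not counted, were 83.0% to 86.6% of barcodes at days 1 and 2 and 50.1% to 54.1% at day 5 for the 5 members apart from Msr1. In them Folr2 was at 1461, 1472 and 1428 CPM at days 1, 2 and 5. From day 2 to day 5 its ratio was 0.970 [0.946, 0.995], beside 0.926 for Mrc1 [0.890, 0.963], 0.907 for Cbr2 and 0.851 for Cd163. Lyve1 was lower, at 1645, 1448 and 976 CPM, a ratio of 0.674 [0.656, 0.693].

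Where all 4 others apart from Msr1 were present the ratios were 1.04 for Cd163 [0.965, 1.12], 1.02 for Mrc1 [0.954, 1.08], 1.02 for Folr2 [0.975, 1.07] and 1.04 for Cbr2 [0.976, 1.11]. All 4 intervals span 1. Lyve1 was at 0.703 [0.671, 0.736], from 1754 to 1233 CPM. Msr1, read in the looser class with at least 4 of its 5 others, was at 1.14 [1.04, 1.26]. Set against day 1, where they were higher, Cd163 was at 0.777 [0.726, 0.830] and Mrc1 at 0.879 [0.830, 0.931]. Barcodes with all 4 were 12.4% to 25.5% of the day 5 library, and the Msr1 class was 31.8%. Outside the barcodes with at least 2 others, Lyve1 was at 282 and 47.8 CPM on days 2 and 5.

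TdTomato RNA, listed in all 4 libraries, was at 878, 583, 775 and 380 CPM. In TdTomato-positive barcodes Lyve1 was at 1223, 1137 and 689 CPM at days 1, 2 and 5, 1.65-fold lower from day 2 to day 5 [1.59, 1.71]. Plac8 in these barcodes went from 14.9 CPM on day 2 to 243 CPM on day 5, and its part in the difference was not tested. The ratio of Folr2 there was 0.810 [0.787, 0.834] and that of Msr1 1.23 [1.13, 1.34]. A barcode without a TdTomato UMI need not be unlabelled, since 1 UMI is near the limit of detection.

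Genes whose levels ran most like a member's were taken from 5454 genes over 24 points, 4 days by 6 classes, by Pearson's r of log2(CPM + 10). The points share libraries and barcodes, so r is a description. Nearest to Folr2 were Fcgrt (r = 0.97) and the complement genes C1qa and C1qb (both 0.96), and nearest to Cbr2 were Rnase4, C1qc and C1qa (0.97 each). Lyve1 ran with Rnase4 (0.95), Adamtsl5 (0.95) and Glul (0.94). For Cd163 they were Ap1b1 (0.97), Ednrb (0.94) and Igfbp4 (0.93), and for Mrc1 Wwp1 (0.94), Chp2 (0.94) and Dab2 (0.92). Msr1 ran with Chd7, Hnrnpc and Tssc1 (0.92 each). Among the members, r was 0.96 for Folr2 with Cbr2, 0.88 for both Lyve1 with Cbr2 and Cd163 with Mrc1, and 0.82 for Lyve1 with Folr2, while Msr1 had negative values with every other but Mrc1 (0.13).

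Of 24 other scavenger and endocytic receptor genes 12 were measured, and from day 0 to day 5 none passed 2-fold in either direction, beside 3.34% of all genes lower and 6.43% higher, with a median log2 ratio of -0.01 against 0.11 over all genes. From day 1 to day 5, 1 of 12 was 2-fold lower, Colec12, a collectin that binds modified lipoproteins, from 88.6 to 40.0 CPM, beside 1.25% of all genes. From day 2 to day 5 none was, beside 1.07%, and the median was -0.45. Stab1, a receptor for modified lipoproteins and matrix fragments, was at 172, 367, 350 and 225 CPM, and like Mrc1 it was higher at days 1 and 2.

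A list of 24 further gene symbols of interstitial and perivascular macrophages, 23 of them measured, was lower at day 5 at the median. The symbol not measured, Sepp1, is an older name of Selenop, which was measured. From day 0, 8 of 23 were at least 2-fold lower and 0 higher, beside 3.34% and 6.43% of all genes, with a median log2 ratio of -0.78. Cd209g was 6.72-fold lower [5.39, 8.40], the chemokine gene Ccl8 3.69-fold, the chemokine gene Pf4 3.24-fold and Cd209b 2.96-fold. Ccl8 was already 2.59-fold lower at day 1 than at day 0, and only 1.14-fold lower from day 2 to day 5. From day 2 to day 5, 4 of 23 genes were lower, beside 1.07% of all genes, with a median of -0.72. These genes and the 6 members were both chosen with earlier results of these libraries known, so neither list is independent evidence of its direction.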

How the data were processed

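Per the labels' protocols, the libraries are Chromium 3' v2 libraries. The authors deposited whole-number UMI counts, not normalized, for every gene in every barcode. Cell Ranger 2.1.0, Seurat 2.3, R 3.5.2 and mm10 are named in the submitters' processing notes, with their roles not given in the sources used here. Genes seen in fewer than 5 barcodes of a library are not listed in its file, and for such a gene 0 was not measured. Samples were grouped by day, from the labels.

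Counts were summed over retained barcodes (at least 500 genes, under 10% mt- UMIs) and scaled to CPM, the UMIs per 1e6 UMIs. No length correction was made, since the kit counts 3' ends, and levels were compared within a gene. Intervals at 95% are exact: conditional Poisson for ratios, Poisson for levels and Clopper-Pearson for shares. With 1 library per day nothing was tested. Doublets were not called or removed. Barcodes were thinned to 500 UMIs without replacement. Where a gene had no UMI in 1 of 2 libraries, counts under 3 were set to 3 for the ratio. The rule for named genes covers the members, the class genes, the 3 likest genes per member, and up to 4 genes per list with the largest day 5 to day 0 ratio among those past 2-fold. Colec12 and Stab1 were named for other comparisons after their values were seen. The members and all lists were chosen with earlier results of these data known. The method was tested on simulated data for 7149 genes, with libraries like those of days 5 and 2: 100% of 4-fold changes were recovered, 0% of unchanged genes passed 2-fold and 95.3% of intervals held the true ratio. The simulated counts had Poisson noise only, which the intervals assume. The simulation thus checks the calculation and says nothing of spread between cells, animals or libraries, or of the shallower day 0 library. Alternatives were other gene minimums, a 5% mitochondrial limit, the deepest 5% of barcodes left out, median-ratio scaling, the mean of each barcode's CPM, other rules for Plac8, no thinning, Msr1 left out and no filter on low values. Stricter class rules, classes called on drawn UMIs, the 4 exclusive classes, co-detection inside classes and marking by other members were chosen after seeing the data. Scripts ran in Python 3.11.15 with SciPy 1.17.1, NumPy 2.4.6, matplotlib 3.10.9 and pandas 2.3.3.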

Additional observations from a re-analysis of the deposited data

Results flagged for a closer look

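The barcodes left out by the filters held the members too. At day 0, 3827 barcodes were left out, and in them Lyve1 was at 1199 CPM, Folr2 at 818 CPM, Cbr2 at 425 CPM, Mrc1 at 336 CPM, Cd163 at 254 CPM and Msr1 at 84.6 CPM. They are given here because they lie in barcodes that enter no comparison and are above the 1.08 CPM that 3 UMIs would make. The retained barcodes of day 0 had 1199, 818, 465, 329, 239 and 84.2 CPM in the same order. At day 0 the intervals of the 2 sets overlapped for all 6 members, for Cbr2 only at their edges (401 to 450 CPM left out, 445 to 486 CPM retained). On the other days 30 to 34 barcodes were left out, with at most 78 UMIs of a member. At day 1 they held Cd163 at 694 CPM [489, 956], Mrc1 at 1463 [1156, 1826], Lyve1 at 975, Folr2 at 731, Cbr2 at 338 and Msr1 at 150 CPM, against 317, 653, 1471, 1299, 635 and 123 CPM retained. At day 2 the values were 423, 1217, 676, 1048, 473 and 135 CPM, and at day 5 they were 202, 648, 287, 266, 244 and 127 CPM, in the same order of genes. Mrc1 was thus higher and Lyve1 lower in the left-out barcodes on all 3 days, against 565 and 332 CPM of Mrc1 and 1305 and 542 CPM of Lyve1 retained at days 2 and 5. All lie above the 31.9 to 56.3 CPM that 3 UMIs would make there.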

How the results depend on the processing

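No paired analysis was possible because each day has 1 library and no replicate number, and for the same reason no replicate could be left out. Of the alternatives to the main counts and shares, 100 gave a like value and 39 moved it, and no direction of a called value was reversed. The side of 1 on which the 30 library ratios lay was kept in 27 (median-ratio scaling) to 30 (mean of each barcode's CPM). With at least 1000 genes per barcode, which left 96 barcodes at day 0, 1 member was 2-fold higher from day 0 to day 1, 2 were lower from day 0 to day 5, and 1 was lower among Plac8-negative barcodes from day 0 to day 5, while the share of UMIs in Plac8-positive barcodes at day 0 was 0% and the share of barcodes with 2 or more members was 29.2% at day 0 and 52.1% at day 1. Without the deepest 5% of barcodes the counts were 1 higher at day 1 and 0 lower at day 5 against day 0, and 0 lower among Plac8-negative barcodes from day 1 to day 5, with 53.0% of barcodes holding 2 or more members at day 1. The mean of each barcode's CPM gave 1 higher at day 1 and 0 lower among Plac8-negative barcodes from day 1 to day 5. Median-ratio scaling gave 2 lower and 0 higher from day 0 to day 5. Calling Plac8 at 2 UMIs put 0.169%, 0.879%, 1.29% and 18.6% of UMIs in positive barcodes at days 0, 1, 2 and 5, and 2 members were lower among the rest from day 1 and 1 from day 2. Calling it after thinning put 0.331%, 0.685%, 0.671% and 10.8% there, with 1, 2 and 1 members lower from days 0, 1 and 2. The wider list put 2.23%, 3.81%, 5.00% and 45.3% there, with 0 lower from day 1. Without thinning, 73.0%, 90.0%, 90.9% and 63.3% of barcodes held 2 or more members. Without Msr1 it was 36.2%, 48.0% and 45.2% at days 0, 1 and 2. Except where an alternative leaves fewer barcodes by its construction, the cause was not tested. Depth limits day 0 most, and with 1 library per day the spread between animals is unknown.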
